A study of Mus musculus with 8 samples.

Results

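The cytosolic ribosomal proteins are the protein part of the ribosome that works outside the mitochondrion. Their genes were taken from the expression table by symbol, as Rpl or Rps followed by a number and the usual suffixes, plus Rplp0, Rplp1, Rplp2 and Rpsa, leaving out the S6 kinases, whose symbols also begin with Rps6. This gave 86 of 19301 genes, 54 of the large and 32 of the small subunit. Of these, 77 are the main genes of the family (46 large, 31 small) and 9 are divergent copies of a main gene: Rpl3l, Rpl6l, Rpl7l1, Rpl10l, Rpl22l1, Rpl32l, Rpl36al, Rpl39l and Rps27l. The ribosomal components Fau and Rack1 have symbols outside this rule and were read beside the family.

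The data were mRNA-seq libraries of primary tendon stem cells (TSCs) isolated from the patellar tendon of C57BL/6J mice. Of the 8 libraries, 4 came from cells kept in low glucose medium (LG, 5.5 mM glucose with DMSO, the solvent) and 4 from cells kept in high-fat and high-glucose medium (HFHG, just over 25 mM glucose with 300 µM palmitic acid), for 4 days in both groups. The comparison asks how RNA levels differ when TSCs grow with the glucose and fatty acid load of diabetes. Each group had 4 biological replicates, but nothing says which animals or cultures they came from, so p-values measure only the spread between these libraries. The 2 additions of HFHG cannot be told apart in this design.

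The library totals recovered from the deposited FPKM (fragments scaled to gene length and library size) were 34308108 to 37362725 reads. In each library 99.8% of the total lay on the listed genes. The totals thus stand for reads counted on genes, and the number of reads sequenced is not known from them. All 10 tendon markers and all 6 fibroblast and mesenchymal markers were detected (at least 0.5 FPKM in a library), although Scx and Tnmd, the defining markers of the lineage, were low (1.53 to 2.88 and 1.01 to 1.19 FPKM in HFHG, 0.983 to 1.76 and 0.220 to 0.916 FPKM in LG). The tendon markers summed to 2497 to 2549.7 FPKM in HFHG and 1621 to 1656 FPKM in LG. Among them Mkx and Egr1 went the other way and Dcn overlapped between the groups. The fibroblast and mesenchymal markers summed to 3632 to 3773 FPKM in HFHG and 2600.4 to 2748 FPKM in LG. Of 9 macrophage markers, 8 were detected, and their summed level was 1711 to 1762 FPKM in HFHG and 1875 to 1955 FPKM in LG. Most of that sum was Lyz2 (1615 to 1662 and 1736 to 1811 FPKM), and C1qa, a complement gene of macrophages, was at 18.1 to 19.1 FPKM in HFHG and 33.9 to 39.8 FPKM in LG. The macrophage sum moved in the direction of the ribosomal proteins, and the tendon and fibroblast sums moved in the opposite direction. The part of these markers in the results below was not tested. Endothelial, muscle, epithelial and erythroid markers, each kind by itself, summed to under 4 FPKM in every library. The muscle sum was 0.643 to 1.31 FPKM in HFHG and 3.09 to 3.91 FPKM in LG. Most of it was Acta1 (0.610 to 1.22 and 3.05 to 3.90 FPKM).

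A ribosome is built from ribosomal RNA and one copy of nearly every ribosomal protein, so cells keep the mRNAs of the family at matched, very high levels. In mammals these mRNAs begin with a run of pyrimidines at the cap, the 5′ terminal oligopyrimidine (TOP) motif, through which mTORC1 and LARP1 control their translation. Production of the ribosome starts in the nucleolus, where RNA polymerase I makes the precursor RNA and MYC raises the supply of its components. Ribosomal proteins that are not built in, RPL5 and RPL11 above all, bind MDM2 and thereby stabilise p53.

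The annotated starts of 65 of the 86 genes were found in the RefSeq table for GRCm38.p6, the build named mm10 in the submitters' notes. A run of at least 8 bases made only of C and T, on the sense strand and within 50 bases of the start, was present in 54 of them (83.1%), against 39.3% of 27025 genes in that table and 36.8% of 9378 tested genes in it. The windows below are shown for genes at both ends of the range of differences and for Rps6, the classical substrate of S6 kinase. Each is 30 bases around the longest run within 50 bases of an annotated start, in capitals (the first where runs tie, as in Rps27l), and is given 5′ to 3′ on the strand of the gene. Where RefSeq gives several starts, as the 2 of Rps27l and the 3 of Rps19, the start with the longest run was used. That of Rps27l lies inside the gene span given further on, which begins upstream of it.
Rpl12 (chr2:32961732-32961761, plus strand): ggaggaggcaacggtgcaaCTTTCTTCggt
Rps12 (chr10:23787182-23787211, minus strand): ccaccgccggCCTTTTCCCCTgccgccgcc
Rpl35 (chr2:39005115-39005144, minus strand): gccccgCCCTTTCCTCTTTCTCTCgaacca
Rps7 (chr12:28635911-28635940, minus strand): ctgtccccaCCTCTTTTCTTCCgccacccg
Rps6 (chr4:86857349-86857378, minus strand): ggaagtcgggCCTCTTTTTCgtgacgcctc
Rps19 (chr7:24884622-24884651, plus strand): accccgtcgTTCCCTTTCCCCTggctggca
Rpl37a (chr1:72711274-72711303, plus strand): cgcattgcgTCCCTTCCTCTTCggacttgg
Rpl7l1 (chr17:46782671-46782700, minus strand): cgtcgaggcgggCCTCTCTaccccgcccgg
Rpl24 (chr16:55966227-55966256, plus strand): acctcaaacccaCTCCCCgccaatgctgta
Rps27l (chr9:66946053-66946082, plus strand): ccccgcctccaCTCCTCTCCactcctcccc

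The run of Rps6 began 1 base before its annotated start, at the place of a TOP motif. That of Rpl35 was 18 bases long and began 7 bases before the start, whereas the longest run of Rpl24 had 6 bases. The other printed runs began between 45 bases before the start (Rps19) and base 40 after it (Rpl12). Rpl12, with the largest decline of the family, had a run of 8 bases. Rpl7a, with one of the smaller declines, had a run of 21 bases. An annotated start can lie some bases from the start used in these cells, so a run is a description of these letters and not a mapped TOP motif. Within 300 bases around the start (250 before, 50 after), CCGGAAG on either strand, a core of ETS factor sites, was found in 40.0% of the 65 genes, against 9.93% of all genes in the table and 20.5% of the tested genes. GGGCGG, the GC box, was found in 61.5%, 38.2% and 69.9%, in the same order. TATAAA, the TATA box, was searched on the sense strand within 50 bases of the start and was found in 7.69%, 4.05% and 2.44%.

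In HFHG, nearly the whole family was lower. Of 83 tested ribosomal protein genes, 81 fell at an adjusted p-value below 0.05 (limma on log2(FPKM + 0.1), Benjamini-Hochberg over 11710 genes), 1 rose and 1 did not pass, while of all tested genes 30.8% fell and 34.0% rose. The median log2 fold change of the family was -0.57 (quartiles -0.63 and -0.50), against 0.02 over all tested genes. This left a median of 67.4% of the LG level. After quantile normalization the family median was smaller in size, at -0.35, with 81 genes lower and 2 higher. The shift was moderate in size, since no gene of the family passed 2-fold and 7.16% of all tested genes fell by as much as the family's median or more. The spread of the family was narrow, with an SD of the log2 fold changes of 0.13 against 0.50 over all tested genes. Of the 83 genes, 75 had a mean of at least 100 FPKM, and other genes of like abundance were not compared. All 77 main genes fell. With bulk RNA, less ribosomal protein mRNA per cell and fewer cells rich in it cannot be told apart.

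The 4 HFHG libraries lay below the 4 LG libraries, with no overlap, in 81 of the 83 genes, against 28.1% of all tested genes. The 1 gene with the opposite order, Rps27l, stands beside 31.1% of all tested genes. Reads on the family took 2.74%, 2.68%, 2.68% and 2.62% of the recovered total in the HFHG libraries and 3.97%, 3.86%, 3.97% and 4.22% in the LG libraries. The means were 2.68% ± 0.0490 (SD, n = 4) and 4.005% ± 0.152 (SD, n = 4), and the groups did not overlap. On the FPKM scale, which corrects for gene length, the family made up 8.12% ± 0.0981 (SD, n = 4) of the summed level in HFHG and 11.7% ± 0.299 (SD, n = 4) in LG. Of the 100 genes with the highest mean FPKM, 29 belonged to it.

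**Figure D1:**
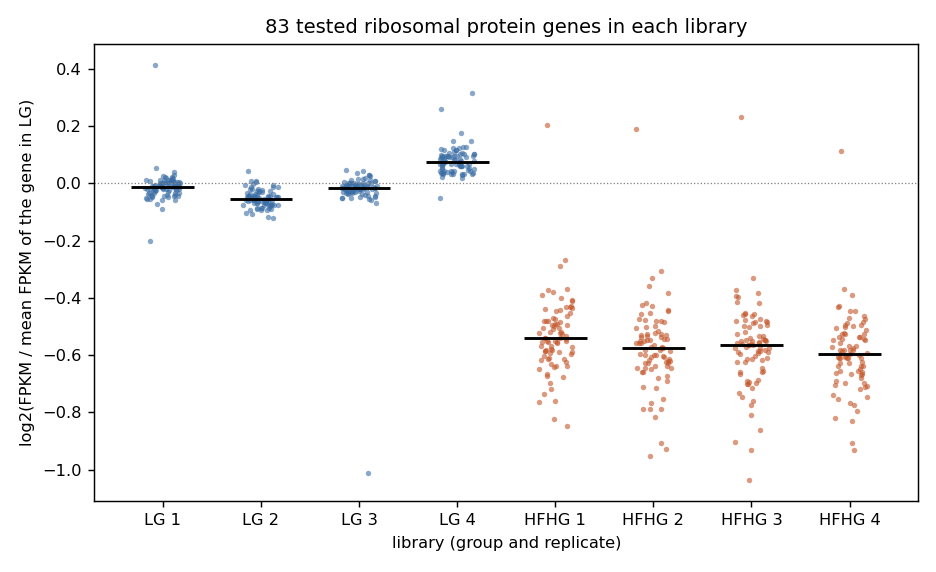
Level of each of the 83 tested ribosomal protein genes in each library, as log2 of its FPKM over its mean FPKM in LG. Points are genes and black bars are medians over genes: the medians lie between -0.054 and 0.076 in the LG libraries and between -0.595 and -0.539 in the HFHG libraries.

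Within a group, most genes of the family had the same order of libraries at its ends. LG replicate 4 held the highest LG value of 75 of the 83 genes (90.4%, against 31.7% of all tested genes) and LG replicate 2 the lowest of 62 (74.7% against 24.7%). In HFHG, replicate 4 held the lowest value of 59 genes (71.1% against 26.5%) and replicate 1 the highest of 45 (54.2% against 26.2%). LG replicate 4 also had the highest summed FPKM over all genes, 433432 against 416926 to 421024 in the other LG libraries, and the part of this in the family's order was not tested. These shifts were small beside the difference between the groups, as the plot of the genes by library shows. The median coefficient of variation was 2.48% in HFHG and 4.19% in LG.

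The medians of the 2 subunits were close. The 46 main genes of the large subunit had a median log2 fold change of -0.57 (range -0.90 to -0.32) and the 31 of the small subunit -0.59 (range -0.87 to -0.37). The summed level of the large subunit was 18749.5 to 19627 FPKM in HFHG and 27775 to 30423 FPKM in LG, and that of the small subunit 13411 to 14062 and 19743 to 21892 FPKM. Across the 77 main genes, Pearson's r of the log2 fold change was -0.04 with the log2 mean FPKM and 0.05 with the log2 gene length recovered from the values, which ran from 252 to 5136 bases with a median of 795. Genes share libraries and are no independent replicates, so no p-value is given. The 592 other tested genes no longer than 1000 bases had a median log2 fold change of -0.09, with 231 lower and 146 higher. Over all tested genes 30.8% were lower and 34.0% higher.

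The 86 genes lie on 19 chromosomes, with 4 on X. Many introns of the family carry genes of small nucleolar RNAs (snoRNAs), the guides of ribosomal RNA modification. By the GENCODE annotation, 30 of the main genes hold at least 1 snoRNA gene and 47 hold none. Their median log2 fold changes were -0.59 and -0.56, and all genes of both sets fell. Rpl13a with 4 snoRNA genes had a log2 fold change of -0.59, and Rps12 with 3 had -0.87. Among main genes with a RefSeq start, the 48 with a pyrimidine run had a median of -0.56 and the 9 without one -0.59.

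**Figure D2:**
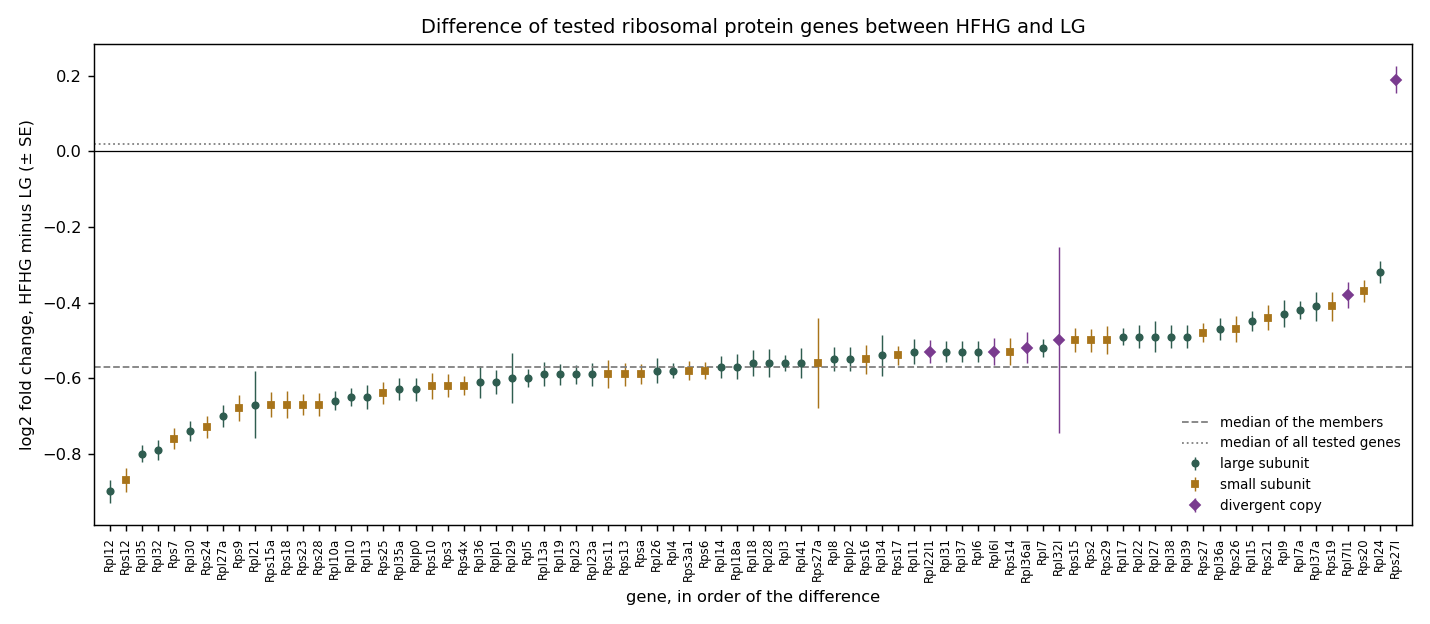
Log2 fold change (HFHG minus LG, ± SE from limma, n = 4 per group) of 81 of the 83 tested ribosomal protein genes, in order, with main genes of the large (circles) and small (squares) subunit and divergent copies (diamonds). The genes run from -0.90 (Rpl12) to -0.32 (Rpl24), except for Rps27l at 0.19; the dashed line is the median of all 83 and the dotted line that of all tested genes.

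The largest decline was that of Rpl12 (chr2:32961712-32964045), a protein at the base of the stalk to which elongation factors bind. It had 493, 467, 475 and 466 FPKM in the HFHG libraries and 892, 853, 868 and 941 FPKM in the LG libraries. The HFHG level was 53.5% of that in LG, with a log2 fold change of -0.90 (SE 0.0306, limma adjusted p = 6.90e-11).

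Next was Rps12 (chr10:23785183-23787383), a small subunit protein of the head, with 353, 333, 343 and 333 FPKM in HFHG and 642, 592, 609 and 653 FPKM in LG. The groups stood far apart, at 54.6% of the LG level (log2 fold change -0.87, SE 0.0324, limma adjusted p = 1.56e-10). Rpl35 (chr2:39001581-39005131), a large subunit protein near the exit of the peptide tunnel, had 505, 497, 490.0 and 482 FPKM against 849.9, 847, 853 and 884 FPKM. Its log2 fold change was -0.80. Rpl32 fell by 0.79, Rps7 by 0.76 and Rpl30 by 0.74 on the log2 scale, each without overlap of the libraries. RPS7 is, like RPL5 and RPL11, known to bind MDM2.

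At the other end of the main genes stood Rpl24 (chr16:55966275-55971437), a large subunit protein of a bridge to the small subunit. Its 635, 608, 608 and 592 FPKM in HFHG lay below 761, 733, 758 and 801 FPKM in LG. The log2 fold change was -0.32 (SE 0.0293, limma adjusted p = 7.94e-07), and after quantile normalization, which brought the median of the family to -0.35, it was 0.06. Rps20, which lies in the head of the small subunit, had 169, 171, 169 and 167 FPKM in HFHG and 221, 210.2, 214 and 231 FPKM in LG, a log2 fold change of -0.37. Rpl37a and Rps19, the latter the gene most often mutated in Diamond-Blackfan anaemia, both had -0.41.

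The 3 proteins of the acidic stalk, which recruits the elongation factors, fell by similar amounts. Rplp1 was the most abundant gene of the family, with 1829.5, 1824, 1807 and 1755 FPKM in HFHG and 2680.5, 2624, 2795 and 2952 FPKM in LG. Its log2 fold change was -0.61 (SE 0.0327, limma adjusted p = 4.69e-09), beside -0.63 for Rplp0 and -0.55 for Rplp2. Of the other most abundant genes, Rpl41, Rps14 and Rpl13a stood near the median of the family, with log2 fold changes of -0.56, -0.53 and -0.59, and Rpl32 had -0.79. Their LG means lay between 1126 and 1684 FPKM.

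Several proteins with a known second role stood near the family's median. Rpl5 and Rpl11, which form a particle with 5S ribosomal RNA, had 243 ± 3.87 and 186 ± 4.75 FPKM in HFHG and 368 ± 8.50 and 268 ± 12.9 FPKM in LG (SD, n = 4). Their log2 fold changes were -0.60 and -0.53. Rps6 had 267, 262, 270.3 and 259.8 FPKM in HFHG and 398, 394, 389 and 407 FPKM in LG, a log2 fold change of -0.58. Rps3, which lies at the mRNA entry channel, had -0.62. Rpsa, also known as the laminin receptor, had -0.59.

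Rps27a, which encodes a fusion of ubiquitin with a ribosomal protein, varied most among the abundant genes. It had 404, 332, 259 and 351 FPKM in HFHG and 429.9, 454, 501 and 592 FPKM in LG. The groups did not overlap, but the highest HFHG library lay just under the lowest LG library. The log2 fold change was -0.56 (SE 0.119, limma adjusted p = 0.00115, range over the alternatives 6.90e-07 to 0.0228). Fau, a fusion with a ubiquitin-like protein, had a log2 fold change of -0.50. Rack1, the scaffold on the small subunit head, had -0.62. Both fell without overlap of the libraries.

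Rps27l, a copy of Rps27 known as a p53 target, was the only one of the 83 tested genes to rise. It lies at chr9:66944624-66949522 and had 55.9, 55.4, 57.0 and 52.5 FPKM in HFHG and 45.6, 49.96, 48.6 and 49.9 FPKM in LG. The HFHG libraries all lay above the LG libraries, with the HFHG mean at 114% of the LG mean. The log2 fold change was 0.19 (SE 0.0365, limma adjusted p = 6.57e-04, range over the alternatives 3.30e-05 to 0.00384). Its main gene Rps27 had 577, 551, 557 and 547 FPKM in HFHG and 777, 757, 788 and 802 FPKM in LG, a log2 fold change of -0.48.

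A ratio of 2 genes within a library does not depend on library scaling, so copies were set against their main genes in pairs. Among the pairs listed for this, which left out the copies Rpl6l and Rpl32l, 4 had both genes past the filter. The log2 ratio of Rps27l to Rps27 was -3.34 ± 0.04 in HFHG and -4.01 ± 0.07 in LG (SD, n = 4), a difference of 0.67 (exact two-sided permutation p = 0.0286, adjusted over 4 pairs p = 0.0571). The copy made up 8.83%, 9.13%, 9.28% and 8.76% of the FPKM of both genes in HFHG and 5.54%, 6.19%, 5.81% and 5.86% in LG. With 4 against 4 libraries the test cannot give less than 0.0286, so no pair could pass 0.05 after adjustment unless 3 of the 4 reached that limit. Reads can be shared between such copies, so each ratio is uncertain.

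The Rpl7l1 to Rpl7 ratio was higher in HFHG by 0.14 on the log2 scale (exact permutation p = 0.0286, adjusted p = 0.0571). RPL7L1 is a homologue of RPL7 that acts in ribosome assembly. Rpl7l1 had a log2 fold change of -0.38 and Rpl7 one of -0.52. The ratios of Rpl22l1 to Rpl22 (difference -0.04, exact permutation p = 0.200) and of Rpl36al to Rpl36a (difference -0.05, exact permutation p = 0.514) differed by about as much as the libraries within a group. The Rpl22l1 copy held 50.5% ± 0.555 of its pair in HFHG and 51.2% ± 0.743 in LG (SD, n = 4), thus as much as the main gene per length.

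**Figure D3:**
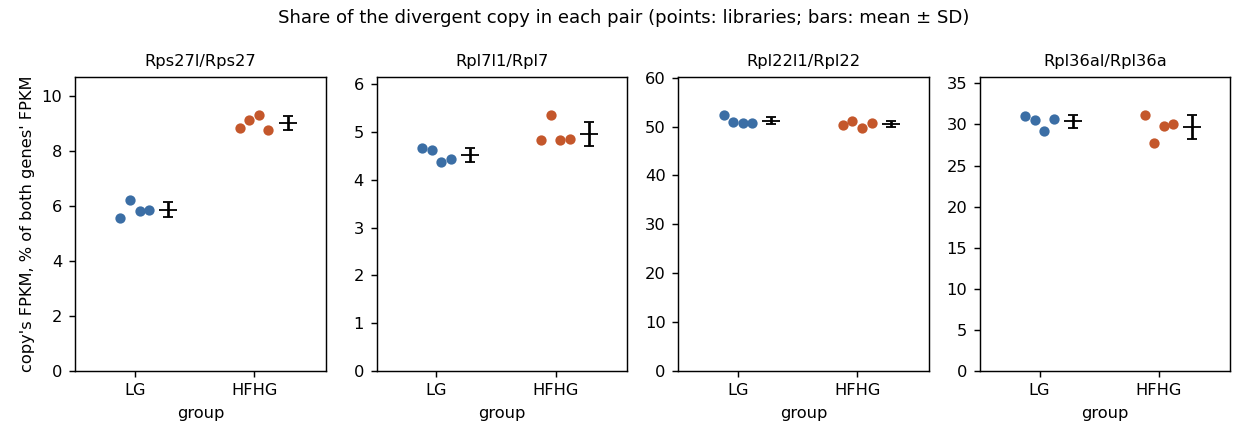
FPKM of the divergent copy as a percentage of the FPKM of copy and main gene together, in each library (points) with the mean ± SD (n = 4), for the 4 pairs tested; each axis starts at 0. Rps27l rose from a mean of 5.85% in LG to 9.001% in HFHG, while the means of Rpl7l1 (4.53% and 4.97%), Rpl22l1 (51.2% and 50.5%) and Rpl36al (30.4% and 29.7%) stayed within 1 percentage point.

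The remaining copies were low. Rpl32l had 1.67, 1.72, 1.17 and 1.76 FPKM in HFHG and 3.20, 2.23, 1.19 and 2.99 FPKM in LG. LG replicate 3 lay among the HFHG libraries, and Rpl32l did not pass (log2 fold change -0.50, SE 0.246, limma adjusted p = 0.0902, range over the alternatives 8.97e-04 to 0.245). Without LG replicate 3 it was -0.79 (limma adjusted p = 8.97e-04). Rpl6l, a copy of Rpl6, had 37.3 ± 1.68 FPKM in HFHG and 54.0 ± 1.34 FPKM in LG (SD, n = 4) and a log2 fold change of -0.53, the same as Rpl6.

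The 3 copies under the filter are known from tissues other than tendon. Rpl3l, typical of heart and skeletal muscle, had 5, 2, 1 and 4 reads in HFHG and 2, 1, 3 and 0 in LG. Rpl39l had 7, 6, 0 and 2 reads in HFHG and 2, 1, 16 and 2 in LG. Rpl10l had 0 reads in every HFHG library and 1 read in LG, in replicate 4. Both Rpl10l and Rpl39l are known from the testis. Their main genes Rpl3, Rpl39 and Rpl10 fell, with log2 fold changes of -0.56, -0.49 and -0.65.

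Some main genes had values far under those of the rest, namely Rpl21 (5.48 ± 0.747 FPKM in HFHG, 8.73 ± 0.642 in LG), Rpl29 (18.4 ± 1.66, 27.8 ± 2.01) and Rpl34 (27.4 ± 0.900, 40.0 ± 3.55; SD, n = 4). The table also lists Rpl34-ps1, named as a pseudogene of Rpl34, at 216 to 220.2 FPKM in HFHG and 302 to 335 FPKM in LG, higher than Rpl34 itself. The sources used here do not give how reads that match several such copies were counted, so the levels of these genes, and of any member with such copies, are uncertain. The log2 fold changes of Rpl21, Rpl29 and Rpl34 were -0.67, -0.60 and -0.54, close to the family's median.

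To see which genes departed from the family, the median log2 level of the family was subtracted in each library and the fit was repeated. This called 51 of the 83 genes, of which 9 fell more than the family and 42 fell less or rose, while 92.0% of all tested genes differed from the family in this way. Centring on the median deviation of the genes from their own means, an alternative added after the data were seen, called 46, of which 24 fell more and 22 fell less or rose. The split therefore depended on the centring. Both calls, with the same sign, held for 31 genes and none had opposite signs. The genes that fell more in both included Rpl12, Rps12, Rpl35, Rpl32, Rps7, Rpl30, Rps24 and Rpl27a. Rpl12 departed by -0.27 and -0.33 (limma adjusted p = 1.68e-09 and 8.67e-11), and Rpl24 by 0.31 and 0.25 (limma adjusted p = 3.50e-10 and 1.96e-09). The 3 stalk genes differed in this. For Rplp0 the first centring gave 0.00 (limma adjusted p = 0.847) and the second -0.06 (limma adjusted p = 0.00271). Rplp1 had 0.02 (limma adjusted p = 0.344) and -0.04 (limma adjusted p = 0.0179). Rplp2 had 0.08 (limma adjusted p = 0.00120) and 0.02 (limma adjusted p = 0.378).

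Other genes of ribosome production and translation were read in lists by role, beside 30.8% of all tested genes that fell and 34.0% that rose. Of 24 TOP translation factors, 22 fell and 1 rose, with a median log2 fold change of -0.42. These mRNAs carry the same motif as the ribosomal proteins. Eef1a1, the elongation factor that delivers transfer RNA, had 2929 ± 32.1 FPKM in HFHG and 4041 ± 50.9 FPKM in LG (SD, n = 4; log2 fold change -0.46, limma adjusted p = 3.57e-10). Npm1, a nucleolar chaperone, had -0.90, and Vim, an intermediate filament gene of mesenchymal cells, rose by 0.30. Of 29 other initiation factors, 20 fell and 3 rose (median -0.27), from Eif1a at -0.68 and Eif5 at -0.59 to Eif5b at 0.18 and Eif4a2 at 0.48.

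The lists of genes that build the ribosome had medians between -0.46 and -0.19. Their counts stand beside 30.8% of all tested genes that fell and 34.0% that rose. Of 28 genes of RNA polymerase I, polymerase III and ribosomal DNA transcription, 15 fell and 4 rose (median -0.19). Among them Myc had 10.9, 9.01, 9.11 and 10.6 FPKM in HFHG and 21.5, 19.7, 19.4 and 20.8 FPKM in LG (log2 fold change -1.04, SE 0.0649, limma adjusted p = 2.18e-08). Polr1a, the catalytic subunit of RNA polymerase I, had -0.24, and Gtf3c1 of the polymerase III machinery rose by 0.59. Of 47 small subunit assembly genes, 32 fell and 1 rose (median -0.29), led by Nop56 at -1.02 and Utp14a at -0.90. Of 50 large subunit assembly genes, 40 fell and 4 rose (median -0.30), led by Gnl3 with a mean of 18.6 FPKM in HFHG and 37.4 FPKM in LG, and by Mrto4 at -0.74. Of 24 genes of snoRNA particles and the nucleolar scaffold, 18 fell and 3 rose (median -0.46), with Nhp2 at -0.73 and Znhit6 at 0.79.

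**Figure D4:**
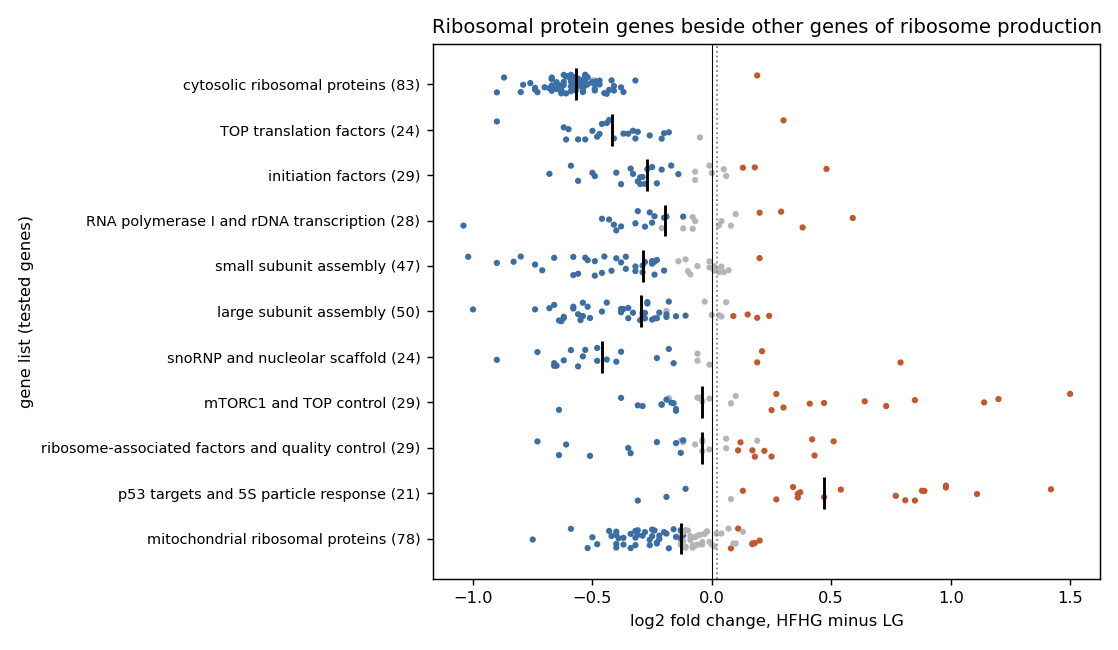
Log2 fold change (HFHG minus LG) of the tested genes of the family and of 10 other lists, with the number of genes in parentheses. Blue points fell, red points rose and grey points did not pass an adjusted p-value of 0.05; black bars are medians (from -0.57 for the ribosomal proteins to 0.47 for the p53 targets) and the dotted line is the median of all tested genes, 0.02.

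The regulators of TOP mRNA translation moved in both directions. Of 29 genes of mTORC1 and TOP control, 11 fell and 11 rose (median -0.04), near the 30.8% and 34.0% of all tested genes. Eif4ebp1, a repressor of translation that mTORC1 phosphorylates, had -0.64, Larp1 -0.21 and Mtor 0.41. The largest rises were those of Sesn3, an inhibitor of mTORC1 signalling, from a mean of 1.75 FPKM in LG to 5.15 FPKM in HFHG, and of Ddit4l at 1.20. Of 29 genes of ribosome-associated factors and quality control, 10 fell and 9 rose (median -0.04), again near the shares over all tested genes. Ifrd2, known to bind idle ribosomes, had -0.73, and Eif2ak3, the kinase of the unfolded protein response that lowers initiation, had 0.51.

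Of 21 genes of the p53 response, 17 rose and 3 fell, with a median of 0.47. Among all tested genes 34.0% rose and 30.8% fell. Cdkn1a, the inhibitor of the cell cycle, had 507, 514, 510.3 and 495 FPKM in HFHG and 271, 261, 269 and 292 FPKM in LG (log2 fold change 0.89, limma adjusted p = 8.66e-11). Btg2 had 1.42, Gtse1 1.11 and Mdm2 0.37, whereas Trp53 itself had -0.31. Rps27l, at 0.19, had the sign of this median and not that of its own family, and a link between them was not tested. Sesn1 and Sesn2 stand in this list and in that of mTORC1.

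The mitochondrial ribosome, which is made of a separate set of nuclear genes, served as a second family of comparable size. Of its 78 genes, 40 fell and 6 rose, and 32 did not pass, with a median of -0.13. The shares over all tested genes were 30.8% lower and 34.0% higher. They ranged from Mrps18b at -0.75 and Mrpl23 at -0.59 to Mrps16 at 0.18 and Mrpl41 at 0.20. The decline was thus smaller in the median than in the cytosolic family, for which the lowest and highest main genes were -0.90 and -0.32. Whether the 2 families differed was not tested.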

How the data were processed

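Total RNA of 8 TSC samples was made into stranded mRNA libraries. The authors deposited FPKM values for 19301 genes (reads scaled to gene length and library size), with replicates kept apart. The submitters' processing notes name HISAT2 2.1.0 and mm10. The counting program, its annotation and its treatment of reads with several matches are not given in the sources used here. Groups and replicate numbers came from the sample labels, and doses from the study's methods. All 8 columns of values were used, and 0 were left out.

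Reads behind each FPKM were recovered by finding library totals and gene lengths that give whole reads (within 0.001 read) in all 8 libraries. This held for 19300 of 19301 genes (99.99%) and for all 86 members. Recovered reads gave the library totals and 1 alternative fit, while FPKM was tested.

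Genes with at least 0.5 FPKM in at least 4 libraries (11710) were tested with limma 3.58.1 in R 4.3.3 (lmFit, eBayes with trend) on log2(FPKM + 0.1), HFHG minus LG, with Benjamini-Hochberg adjustment over all of them. A fold change is therefore on the log2(FPKM + 0.1) scale and understates changes of low genes. The script was tested on simulated data. Pair ratios were tested by an exact permutation over 70 arrangements. Same-numbered libraries did not deviate together (r of -0.0207, -0.00955, -0.00558 and -0.0736 over 11710 genes), so the numbers were not taken as pairs.

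The members and lists were chosen with earlier results of these data known. Genes named are those below the filter or not called, the 6 highest and 6 lowest called, and all pairs. The 6 most abundant and members with a known separate role are also named. Per list, genes were taken from the 2 highest and 2 lowest called, but not all of these are named. In the 2 lists of subunit assembly only genes that fell are named. Results of a few genes are not reported here. Genes named outside this rule were chosen after their values were seen. Gene positions and starts came from RefSeq (GRCm38.p6), and snoRNA genes from GENCODE M21.

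Alternatives were other pseudocounts (1 and 0.01), no filter or 1 FPKM as the minimum, an equal sum per library with or without the family, median-ratio scaling, quantile normalization, a replicate block, robust eBayes, voom on recovered reads, and leaving out each library.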

Additional observations from a re-analysis of the deposited data

Results flagged for a closer look

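In 6 of 162 groups of 4 libraries, 1 library lay far from the others by Dixon's ratio of its gap to the whole range, where chance gives about 1 in 20. Of these, 4 were in LG replicate 4, each time the highest. Rpl6 had 415 FPKM there, against 385 to 388 in the other LG libraries (ratio 0.912). Rpl29 had 30.8 against 26.7 to 27.1 FPKM (ratio 0.896), Rpl13 1003 against 906 to 919 FPKM (ratio 0.866) and Rpl35 884 against 847 to 853 FPKM (ratio 0.841). The other 2 were the lowest of HFHG: Rpl36a in replicate 4 with 263 against 276 to 278 FPKM (ratio 0.879), and Rpl32l in replicate 3 with 1.17 against 1.67 to 1.76 FPKM (ratio 0.857). Without LG replicate 4, 81 genes of the family still fell and 1 rose, with a median log2 fold change of -0.55.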

How the results depend on the processing

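Between 82 and 83 genes were called under every alternative (of 83, or of 86 without a filter), with 81 or 82 lower, and the median log2 fold change stayed between -0.60 and -0.51 except under quantile normalization, where it was -0.35 (members minus all genes -0.33, against -0.58). Under quantile normalization Rpl24 turned to 0.06 (limma adjusted p = 0.00545), which makes 2 higher. That method gives all libraries the same distribution, and the family holds many of the most abundant genes. Leaving out each library in turn gave medians from -0.59 to -0.55. Rpl32l passed under quantile normalization (-0.62), with the replicate block (-0.50, limma adjusted p = 0.00901) and without LG replicate 3 (-0.79). The departures from the family numbered 38 with voom (24 fell more, 14 less or rose) to 57 with quantile normalization (14 and 43). With the replicate number as a block, 83 genes were called, and the pair differences kept their size, 0.67 for Rps27l to Rps27 and 0.14 for Rpl7l1 to Rpl7, but 4 paired differences cannot give an exact permutation p under 0.125. Leaving out 1 library, the latter difference ran from 0.10 to 0.16 (exact permutation p = 0.0571 without HFHG replicate 2), and the former from 0.64 to 0.70. Rpl3l, Rpl10l and Rpl39l were left out by the filter, and without it their limma adjusted p-values were 0.319, 0.535 and 0.856, at 0 to 16 reads per library.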
